A study of Mus musculus with 9 samples.

Results

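Genes that handle iron and haem were examined in macrophages grown from the bone marrow of C57BL/6 mice. The set was defined by UniGene cluster number, the row identifier of the deposited table, and comprised 7 clusters. Of these, 5 were measured among the 17810 clusters: Tfrc (Mm.28683), Slc40a1 (Mm.28756), Slc11a1 (Mm.2913), Hmox1 (Mm.276389) and Lcn2 (Mm.9537), each by 1 probe set. The ferritin clusters, Fth1 (Mm.1776) and Ftl1 (Mm.30357), were not analysed here, so nothing is reported on iron storage. The pairing of cluster numbers with symbols came with the definition of the set and is not in the deposited table. It could be checked for Tfrc alone, against 3 control probe sets whose names in the file give the transferrin receptor.

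The members were chosen by their role in iron handling, with differences of the transferrin receptor control sets in all 3 comparisons already known. The Tfrc values are therefore given as a description, with no test. For the other clusters the definition of the set states no measured value. Their p-values come from the fit over all features and set each difference against the spread between arrays. They are not independent evidence.

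Every culture contained M-CSF, the growth factor that drives marrow cells to become macrophages, at 30 ng/ml, and stimulation began on day 4 and lasted 3 days. In the dexa+IL4 group, cells were given dexamethasone, a glucocorticoid drug, together with interleukin 4 (IL-4), at doses of 5e-07 M and 10 ng/ml. The cmB16F1 group received medium conditioned by B16F1, a mouse melanoma cell line, without these agents. The cmB16F1 and dexa+IL4 group, called the combination here, received all of them. Each group had 3 arrays, numbered 1 to 3 in the labels. The labels do not say whether these came from separate mice or cultures, so p-values measure only the spread between these arrays, which may be technical. Dexamethasone and IL-4 were always given together, so their shares cannot be told apart. No array of M-CSF medium alone was used here, so each difference is between stimulated groups. The difference between the combination and dexa+IL4 takes conditioned medium as a whole, including whatever the melanoma cells had consumed or released.

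Macrophages recycle most of the body's iron by engulfing old red cells. Haem oxygenase 1, encoded by Hmox1, opens the haem ring and frees the iron, which is stored in ferritin or leaves the cell through ferroportin, encoded by Slc40a1. Transferrin receptor 1, encoded by Tfrc, brings in iron bound to transferrin. Iron regulatory proteins bind stem-loops in the Tfrc, ferritin and ferroportin transcripts, so that low cell iron stabilises the first and holds back translation of the others. Slc11a1 (Nramp1) moves iron and other metals across the phagosome membrane, and lipocalin 2, encoded by Lcn2, binds bacterial siderophores that carry iron.

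The Tfrc promoter is shown because this gene had the widest spread of group means in the set. RefSeq promoter windows (build GRCm38.p6) were found for 3 of the 5 genes, Tfrc, Slc11a1 and Lcn2. The 250 bases before the first annotated Tfrc start, chr16:32608646-32608895 on the plus strand, hold 64.8% G and C, against a median of 52.4% over 32851 windows of the same length. The second sequence covers 30 bases across that start, chr16:32608882-32608911, with a match to the hypoxia response core in capitals.

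Tfrc, before the start: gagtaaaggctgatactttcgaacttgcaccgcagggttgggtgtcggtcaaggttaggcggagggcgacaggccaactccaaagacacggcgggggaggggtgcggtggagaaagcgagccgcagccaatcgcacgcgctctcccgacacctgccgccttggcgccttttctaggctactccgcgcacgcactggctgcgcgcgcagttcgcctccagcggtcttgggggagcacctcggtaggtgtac
Tfrc, across the start: ctcggtaggtgtACGTGcggaaggaagtga

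Both strands of the 250 bases before each annotated start were searched for 4 motifs, none of which overlapped another at a match. The antioxidant response core TGACNNNGC, bound by NRF2 and BACH1 with small MAF partners, occurs in 10.2% of all windows and was found for none of these 3 genes. The hypoxia response core ACGTG occurs in 16.6% of windows and was found before the second annotated Tfrc start, which lies downstream of the first. The STAT6 site TTCNNNNGAA, bound by the main transcription factor of IL-4 signalling, occurs in 5.85% of windows. It was found for Lcn2 (chr2:32387876-32387905, minus strand), where the match is in capitals. The palindromic glucocorticoid response element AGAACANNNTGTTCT occurs in 0.00913% of windows and was not found for these genes. These matches describe letters in the windows and show no binding.

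Lcn2, around the match: tgccaagtatTTCAACAGAAtgtactggca

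All values are log2 expression values from 1-colour Affymetrix arrays. They ran from 5.86 to 14.2 over the whole table, with array medians from 7.20 to 7.25. Control sets for bacterial poly-A transcripts lay between 6.09 and 7.00 and mark the low end of the scale, where differences are compressed. Levels of different genes are not compared, since probe sets differ in response. Markers of macrophages and of other cell types could not be read, because neither the table nor the reference pairs cluster numbers with symbols. A share of other cells and the level per cell can therefore not be told apart. The same holds for further iron genes, such as the haptoglobin receptor, hepcidin and the iron regulatory proteins, which were listed for this comparison and were not analysed here.

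**Figure D1:**
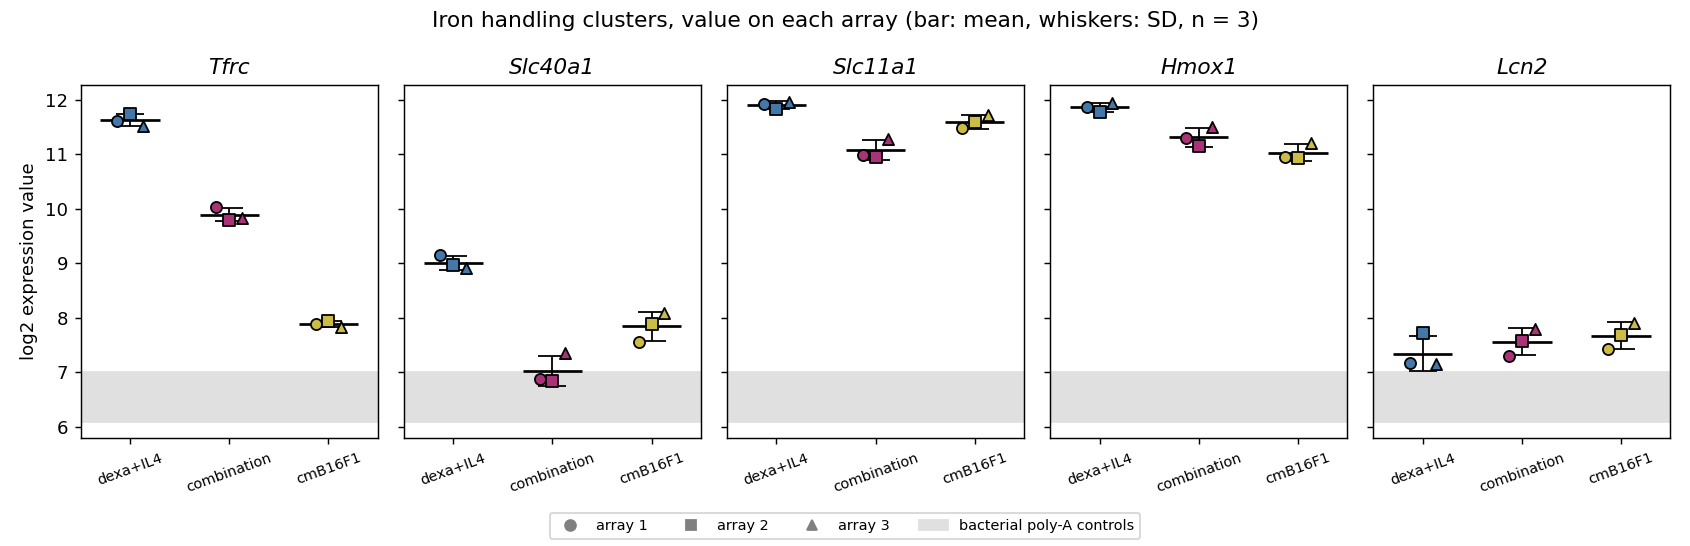
Log2 expression value (vertical axis) of the 5 measured clusters on each array, by group, with the mean as a bar, the SD as whiskers (n = 3) and the array number as the symbol. The grey band spans the bacterial poly-A controls, 6.09 to 7.00. Tfrc steps down from dexa+IL4 to the combination to cmB16F1, Slc40a1 and Slc11a1 are lowest in the combination, and Lcn2 overlaps between all groups.

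Transferrin receptor was highest in dexa+IL4, intermediate in the combination and lowest in cmB16F1. The Tfrc cluster was at 11.62, 11.75 and 11.53 on dexa+IL4 arrays 1 to 3. It was at 10.03, 9.80 and 9.84 in the combination, and at 7.88, 7.94 and 7.84 in cmB16F1. The 3 groups did not overlap, and the gaps between them were many times the spread within them. The group means were 11.63 ± 0.11 (SD, n = 3), 9.89 ± 0.12 and 7.89 ± 0.05.

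Tfrc was thus 3.34-fold lower in the combination than in dexa+IL4, a log2 difference of -1.74 (SE 0.08). It was 4.01-fold higher in the combination than in cmB16F1, a log2 difference of 2.0 (SE 0.08). Between the single arms it was 13.4-fold higher in dexa+IL4, a log2 difference of 3.75 (SE 0.08). The cmB16F1 values lay less than 1 log2 unit above the highest bacterial control, so the folds against that group may be too small. The range of its group means, 3.75, was wider than that of 99.9% of all clusters. Differences of this receptor were known when the set was drawn up, so that rank is a description only.

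The control sets for the same receptor followed the Tfrc cluster. Over the 9 arrays its Pearson correlation was 0.994 with the 3' set, 0.977 with the middle set and 0.965 with the 5' set. These are descriptions over arrays that fall into 3 groups. Of 11313 other clusters compared, 130 also correlated with Tfrc above 0.95, so these values alone do not identify the cluster. Within groups, after subtracting each group mean, the correlations were 0.849, 0.927 and 0.898. Arrays that read high for the cluster in their group thus also read high for the control sets. Whether the cluster and the control sets have probes in common was not tested.

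The 3' control set was at 10.51, 10.62 and 10.33 in dexa+IL4. The combination read 8.85, 8.47 and 8.63, and cmB16F1 read 7.16, 7.09 and 7.17. The order of the groups was that of the cluster, and in cmB16F1 all 3 arrays read just above the bacterial controls. The 5' and middle sets lay at or below the highest bacterial control of their array on all 3 cmB16F1 arrays, so for them that group gives only a bound. Against that bound the 5' set was at least 3.61-fold and the middle set at least 4.57-fold higher in dexa+IL4. The Tfrc cluster, by contrast, read above the bacterial controls on every array, and its difference between the single arms, 3.75, was larger than the 3.35 of the 3' set.

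**Figure D2:**
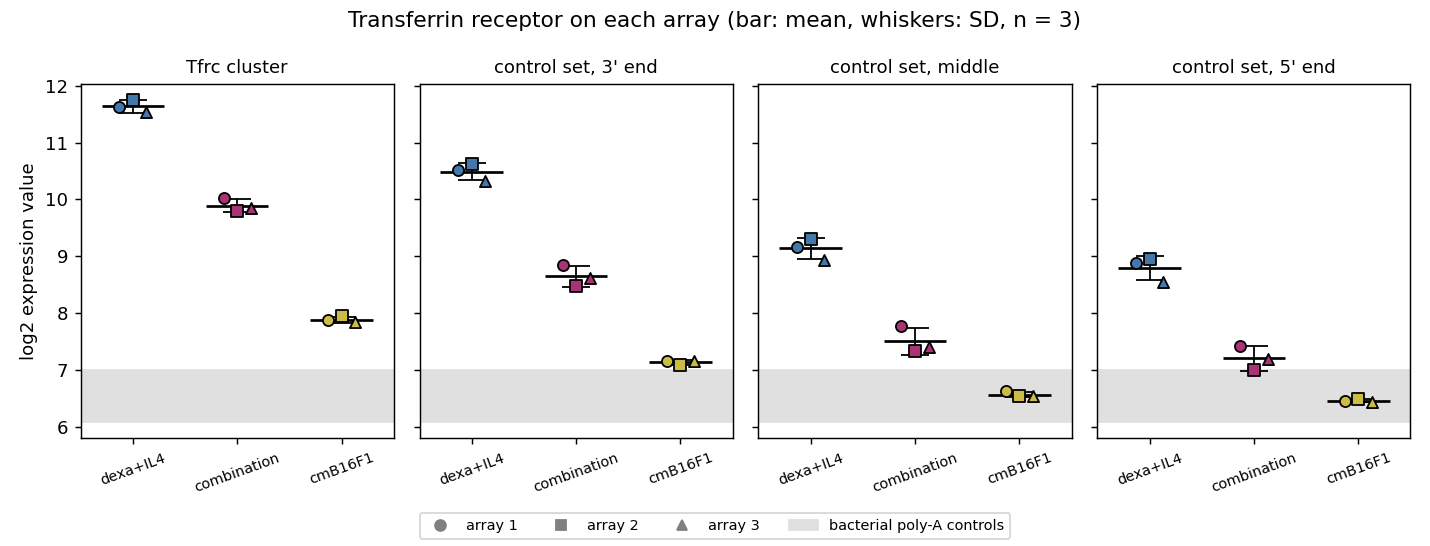
Log2 expression value (vertical axis) of the Tfrc cluster and of the 3 transferrin receptor control sets on each array, by group, with mean and SD (n = 3). The order dexa+IL4, combination, cmB16F1 is the same in all 4 panels, and the 5' and middle sets reach the grey band of bacterial controls in cmB16F1.

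Ferroportin, the iron exporter, was high in dexa+IL4 and lowest in the combination. Slc40a1 was at 9.15, 8.96 and 8.92 on dexa+IL4 arrays 1 to 3. With cmB16F1 it was at 7.56, 7.90 and 8.08, and in the combination at 6.89, 6.85 and 7.35. The groups did not overlap. On combination arrays 1 and 2 the value lay below the highest bacterial control of the same array, and array 3 alone read above it. The means were 9.01 ± 0.13 (SD, n = 3), 7.85 ± 0.26 and 7.03 ± 0.28.

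Slc40a1 fell from dexa+IL4 to the combination, with a log2 difference of -1.98 (SE 0.15, limma with Benjamini-Hochberg adjusted p = 4.495e-05). With the bacterial controls as a floor on each array it was at least 3.83-fold lower, since 1 of the 3 combination arrays alone measured it above them. It was also lower in the combination than in cmB16F1, with a log2 difference of -0.82 (SE 0.15, limma adjusted p = 0.00511), which with that floor is at least 1.71-fold. Between the single arms it was 2.24-fold higher with dexa+IL4, with a log2 difference of 1.16 (SE 0.15, limma adjusted p = 3.761e-04). All 3 calls passed the threshold of 0.05 under each of 18 alternative settings. Both comparisons with the combination use the same combination arrays, which read near the low end of the scale. The "at least" folds allow for the floor alone and not for the spread between arrays.

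Tfrc and Slc40a1 therefore differed in where the combination lay. For Tfrc, dexamethasone with IL-4 went with a higher level than conditioned medium alone, also in the presence of that medium. For Slc40a1 the level was higher with dexamethasone and IL-4 alone and lower where they were added to conditioned medium. Conditioned medium went with a lower level of both genes in cells given dexamethasone and IL-4.

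Slc11a1, the phagosomal metal transporter, had the same order of groups as Slc40a1 with smaller differences. It was at 11.93, 11.83 and 11.97 on dexa+IL4 arrays 1 to 3. In cmB16F1 it was at 11.48, 11.59 and 11.73, and in the combination at 10.99, 10.96 and 11.29. The 3 groups did not overlap, although the highest combination array and the lowest cmB16F1 array were close. The means were 11.91 ± 0.07 (SD, n = 3), 11.60 ± 0.13 and 11.08 ± 0.18.

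Slc11a1 fell 1.78-fold from dexa+IL4 to the combination, with a log2 difference of -0.83 (SE 0.10, limma adjusted p = 3.635e-04). It was 1.43-fold lower in the combination than in cmB16F1, a log2 difference of -0.52 (SE 0.10, limma adjusted p = 0.00478). The single arms differed by 0.31 (SE 0.10, limma adjusted p = 0.0397), or 1.24-fold higher in dexa+IL4. Scaling to the hybridization controls ended that last call (limma adjusted p = 0.0829). It was also lost without dexa+IL4 array 1, 2 or 3 (adjusted p = 0.112, 0.059 and 0.124) and without cmB16F1 array 1 or 2 (0.122 and 0.0999). The difference itself ran from 0.25 to 0.38 over the 18 alternatives.

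Hmox1, which encodes the enzyme that releases iron from haem, was highest in dexa+IL4. It was at 11.87, 11.77 and 11.94 there. The combination read 11.30, 11.15 and 11.50, and cmB16F1 read 10.96, 10.94 and 11.21. The dexa+IL4 arrays lay above all others, while cmB16F1 array 3 lay above combination array 2. The means were 11.86 ± 0.09 (SD, n = 3), 11.32 ± 0.18 and 11.04 ± 0.15.

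Hmox1 fell 1.46-fold from dexa+IL4 to the combination, with a log2 difference of -0.55 (SE 0.10, limma adjusted p = 0.00474). Between the single arms it was 1.77-fold higher with dexa+IL4, a log2 difference of 0.83 (SE 0.10, limma adjusted p = 2.443e-04). The combination and cmB16F1 differed by 0.28, with a 95% interval from 0.06 to 0.51, which missed the threshold (limma adjusted p = 0.104). Arrays of equal number deviated together in these groups. With the number as a block over all groups, dexa+IL4 included, the same difference passed (limma adjusted p = 0.0065). By number the difference was 0.34, 0.21 and 0.29, positive in 3 of 3 pairs. It also passed without cmB16F1 array 3, at 0.37 (limma adjusted p = 0.0454), and was 0.07 with scaling to the hybridization controls.

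Lcn2, the siderophore-binding protein, did not pass the test in any comparison. It was at 7.17, 7.72 and 7.15 on dexa+IL4 arrays 1 to 3. In the combination it was at 7.31, 7.58 and 7.80, and in cmB16F1 at 7.42, 7.70 and 7.91. All groups overlapped, and all values lay less than 1 log2 unit above the highest bacterial control. The means were 7.34 ± 0.32 (SD, n = 3), 7.56 ± 0.25 and 7.68 ± 0.24.

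The Lcn2 difference was 0.22 between the combination and dexa+IL4, with a 95% interval from -0.18 to 0.62 (limma adjusted p = 0.463). Between the combination and cmB16F1 it was -0.11, with an interval from -0.51 to 0.28 (limma adjusted p = 0.766). Between dexa+IL4 and cmB16F1 it was -0.33, with an interval from -0.73 to 0.06 (limma adjusted p = 0.211). The last passed without dexa+IL4 array 2, at -0.52 (limma adjusted p = 0.0498).

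**Figure D3:**
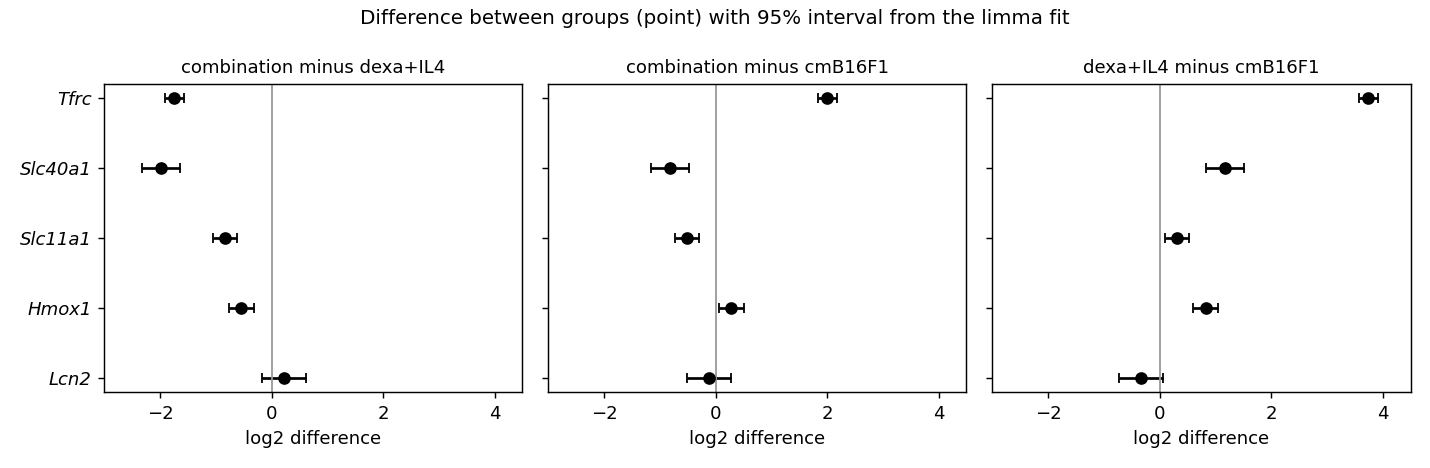
Log2 difference (horizontal axis) of the 5 clusters in each comparison, with the point at the estimate and the bar at its 95% interval from the limma fit. Tfrc, Slc40a1, Slc11a1 and Hmox1 lie left of 0 for the combination minus dexa+IL4 and right of 0 for dexa+IL4 minus cmB16F1, and they part in the middle panel.

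Counts are given over the 4 clusters other than Tfrc, whose differences were known beforehand. When conditioned medium was added to dexamethasone and IL-4, 3 of the 4 passed the test, Slc40a1, Slc11a1 and Hmox1, all of them lower in the combination. Over all clusters 17.9% passed in this comparison, 8.88% higher and 9.0% lower. The median size of the log2 difference was 0.69 for the 4 clusters and 0.07 for all clusters. Here and in the comparisons below, all clusters means 17810, dim ones included, whose differences are compressed. Outside the set, 11313 had a highest group mean above the bacterial controls. The 2 groups were fully separated in 3 of the 4 clusters, against 36.1% of all clusters.

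When dexamethasone and IL-4 were added to conditioned medium, 2 of the 4 passed, Slc40a1 and Slc11a1, both lower in the combination. Over all clusters 14.1% passed, 6.56% higher and 7.57% lower. The median size of the difference was 0.40 for the 4 clusters and 0.06 for all clusters. The 2 groups were fully separated in 2 of the 4, against 28.5% of all clusters. With the replicate number as a block Hmox1 passed too, and the share of all clusters that passed was then 17.1%.

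Between the single arms 3 of the 4 passed, Slc40a1, Slc11a1 and Hmox1, all of them higher in dexa+IL4. Over all clusters 25.0% passed, 12.8% higher and 12.2% lower. The median size of the difference was 0.58 for the 4 clusters and 0.08 for all clusters. The 2 groups were fully separated in 3 of the 4, against 44.3% of all clusters. The comparisons share groups of arrays, so their counts are not separate observations. Since the set was drawn up with earlier results known, no more is read from these counts.

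The 3' set of 18S ribosomal RNA, a control set on the array, had a lower mean in dexa+IL4 than in the other groups. It was at 9.17, 9.17 and 9.29 with dexa+IL4, at 9.39, 9.98 and 10.45 in the combination and at 9.24, 10.58 and 10.08 in cmB16F1. The group means were 9.21 ± 0.07 (SD, n = 3), 9.94 ± 0.53 and 9.97 ± 0.68. Its mean was thus lowest and its spread smallest where Tfrc, Slc40a1, Slc11a1 and Hmox1 were highest, although 1 cmB16F1 array lay within the dexa+IL4 range. The 3' minus 5' difference of the Gapdh control sets was 0.26, 0.26 and 0.40 on dexa+IL4 arrays 1 to 3. It was 0.24, 0.59 and 0.52 in the combination and 0.19, 0.57 and 0.50 in cmB16F1. In these last 2 groups array 1 was the lowest for 18S and for the Gapdh and actin differences. What these controls contribute to the differences of the members and to the spread within groups was not tested.

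How the members vary together is shown by their correlations over the 9 arrays, which mostly reflect the group means. Slc40a1 and Slc11a1 correlated at 0.961 and Tfrc and Hmox1 at 0.917, while Tfrc and Slc11a1 correlated at 0.309. After subtracting group means, Slc11a1 and Hmox1 correlated at 0.914, Slc40a1 and Slc11a1 at 0.889 and Slc40a1 and Hmox1 at 0.735. Tfrc did not follow them within groups, at -0.168 with Slc40a1, -0.412 with Slc11a1 and -0.341 with Hmox1. Over all clusters, deviations from group means were also shared by array number between the combination and cmB16F1 (correlations 0.617, 0.565 and 0.662). Whether the members vary together more than other clusters do was not tested. In the combination and in cmB16F1, array 3 was the highest of its group for Slc40a1, Slc11a1, Hmox1 and Lcn2, and array 3 was not the highest for Tfrc.

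Taken by array number, the difference between the combination and cmB16F1 was -0.67, -1.04 and -0.73 for Slc40a1, and -0.49, -0.63 and -0.44 for Slc11a1. Both genes were lower in the combination in 3 of 3 pairs. For Lcn2 the differences were -0.11, -0.12 and -0.11, with an SD of 0.0055 over the 3 pairs, far less than the SD of 0.25 between combination arrays. In the fit with the number as a block over all groups, the Lcn2 difference missed the threshold (limma adjusted p = 0.653). The spread in that fit includes the dexa+IL4 arrays, whose Lcn2 differences from the combination by number had an SD of 0.40. That p-value therefore cannot decide on the pairs of the combination and cmB16F1, and no fit paired these groups alone.

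**Figure D4:**
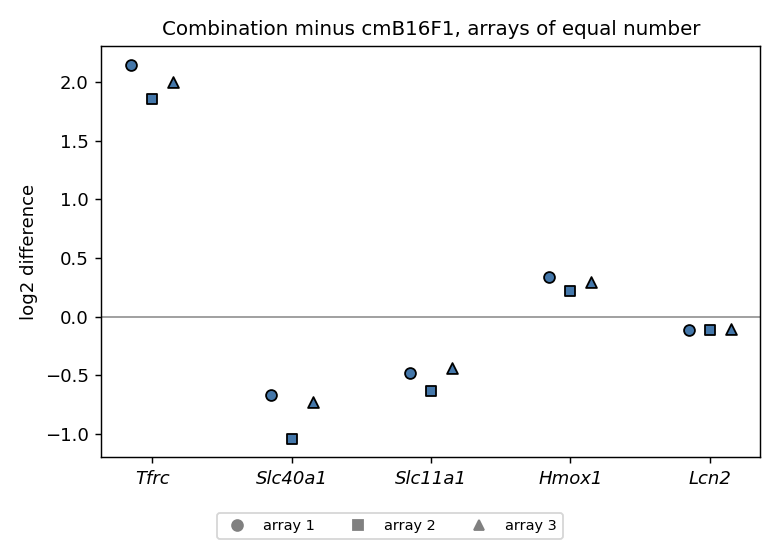
Log2 difference (vertical axis) between the combination and cmB16F1 for arrays of equal number, for each cluster, with the array number as the symbol. The 3 Lcn2 points coincide near -0.11, and the Slc40a1 points run from -1.04 to -0.67.

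Across the remaining clusters, those most like Tfrc over the 9 arrays were sought among 11313 whose highest group mean lay above the bacterial controls. The closest were Mm.121918, with a Pearson correlation of 0.994, and Mm.103439, at 0.992, and the most opposite were Mm.1870 at -0.994 and Mm.2534 at -0.993. Mm.1870 was at 11.39 ± 0.03 (SD, n = 3) in dexa+IL4, 12.04 ± 0.09 with all agents and 12.64 ± 0.02 in cmB16F1. Neither the table nor the reference pairs these numbers with names. A correlation above 0.95 in size was found for 334 clusters, 130 positive (1.15% of those compared) and 204 negative.

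Scaling each array to its hybridization controls, bacterial and phage transcripts, shifted the median difference of all clusters to -0.26 for the combination against dexa+IL4. Of the called clusters, 5.34% were then higher instead of 49.7% in that comparison, and 38.2% with median centring. For the combination against cmB16F1 the share was 11.7% with this scaling instead of 46.4%. Tfrc, Slc40a1 and Slc11a1 kept their direction in all 3 comparisons under that scaling and under median centring, and so did Hmox1.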

How the data were processed

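The deposited table held log2 probe-set values of 17931 sets on 9 arrays, already normalized by the authors. No header names the scale, and log2 was inferred from the range. How the authors corrected background, normalized and summarised probes, and which chip definition they used, is not given in the sources used here. Per the labels' protocols, total RNA was column-purified and biotinylated cRNA was hybridised. For 57 clusters with a plus and a minus set, the set with the higher mean was used.

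Groups were compared in R 4.3.3 with limma 3.58.1 (lmFit, eBayes with a mean-variance trend) on all 9 arrays with a group term alone and 6 residual degrees of freedom. P-values were adjusted (Benjamini-Hochberg) across 17829 features, 17810 clusters plus 19 mouse control sets, at a threshold of 0.05. No dim cluster was filtered out. The number of arrays limits the precision. The fit was tested on data made with known changes before use. "At least" folds take, on each array, the higher of a set's value and the highest bacterial poly-A control. They are differences of means and do not allow for the spread between arrays.

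Deviations from group means correlated at 0.617, 0.565 and 0.662 between the combination and cmB16F1 for arrays 1 to 3, all over the limit of 0.1. Differences by array number are therefore also given for these groups. With dexa+IL4 the correlations did not all pass the limit. The main fit, which gave the counts, ignored the numbers. A block for them was used only as an alternative, over all groups, dexa+IL4 included.

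The members and gene lists were chosen with earlier results of these data known. All members, the receptor control sets and the 2 clusters most like and most opposite to Tfrc are named. The antioxidant and iron-responsive stem-loop motifs were listed with the design, the other 3 motifs after the tables had been seen. The stem-loop core was in none of 4 member windows after the start, against 0.00609% of all windows. These windows were of Tfrc, Slc11a1 and Lcn2, with none for Slc40a1, and covered only the first bases after the start. The search therefore cannot show whether a member transcript holds the element.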

Additional observations from a re-analysis of the deposited data

How the results depend on the processing

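Each difference was recomputed under 18 alternatives: 9 changes of normalization, model, filter or probe set and 9 fits that each left out 1 array. Of 270 values for the 5 clusters, 258 kept their direction and side of the threshold, 6 lost a call, 3 gained one and 3 changed sign. Many of these directions were fixed in advance. Each member has 1 probe set, so the choice between plus and minus sets left its values the same. Dropping the trend, adding the block, filtering, or removing arrays outside the comparison also left the difference unchanged and could alter only its p-value. All Tfrc values are among the 258 and are only a description, since its differences were known beforehand. The 6 lost calls are those of Slc11a1 between the single arms, and the gains are those given above for Hmox1 and Lcn2. The 3 sign changes were all of Lcn2, which passed in none of those 3 fits. Its difference between the combination and dexa+IL4 was -0.036 with scaling to the hybridization controls. Between the combination and cmB16F1 it was 0.015 without combination array 1 and 0.0047 without cmB16F1 array 3, and ran from -0.24 to 0.015 when 1 array was left out. The cause was not tested. Apart from these lost and gained calls, the members other than Tfrc stayed on their side of the threshold. Apart from Hmox1, a replicate block changed no call of a member. With it, the clusters called over the whole table rose to 4149, 3052 and 5172 from 3184, 2516 and 4454, in the order of comparisons given above. Of all clusters, 3184 passed for the combination against dexa+IL4, 7104 with scaling to the hybridization controls, 2044 without dexa+IL4 array 1 and 2096 without its array 3. For the single arms 4454 passed, and 1893 with that scaling. That scaling gave infinite prior degrees of freedom, so its p-values rest on a spread shared across clusters and not on each cluster's own. They are therefore not on the same footing as those of the other fits. For Slc11a1 between the single arms the limma adjusted p rose from 0.0397 to 0.0829, although the difference was larger, 0.35 instead of 0.31. Values near the bacterial controls, those of Slc40a1 in the combination, Tfrc in cmB16F1 and Lcn2 throughout, limit what these arrays can show.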
